A study of Mus musculus with 22 samples.

Results

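The 9 genes described here encode members of the Slc2a family, the facilitative sugar transporters also called GLUT proteins: Slc2a1, Slc2a3, Slc2a4, Slc2a5, Slc2a6, Slc2a8, Slc2a9, Slc2a10 and Slc2a12. They were chosen by name, as the rows whose gene symbol was exactly 1 of these 9, and all 9 were found, among 34866 genes listed for the cultures and 23911 listed for cartilage. The rule itself used no measured value, but the members were chosen with earlier results of these data known.

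These proteins let sugars cross a membrane down their concentration gradient, without using energy. Slc2a1 and Slc2a3 are high-affinity glucose carriers of the plasma membrane, and Slc2a4 is the insulin-responsive glucose carrier of muscle and fat. Slc2a5 is a fructose carrier, Slc2a9 mainly carries urate, and Slc2a6, Slc2a8, Slc2a10 and Slc2a12 are less studied members that lie largely on membranes inside cells. Chondrocytes of the growth plate live without blood vessels at low oxygen and rely heavily on glycolysis, and SLC2A1 is regarded as their principal glucose carrier.

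The study compared mouse knee cartilage of controls and of mutants of Dnmt1, the enzyme that copies DNA methylation onto the new strand after replication. Control samples carried the Dnmt1 allele flanked by loxP sites (Dnmt1 flox), with no Cre named in their labels, and mutant samples (cKO) carried Prrx1-Cre;Dnmt1 flox/flox. Prrx1-Cre is active in the limb bud mesenchyme, so it acts in other limb cells that come from it as well as in chondrocytes. Primary chondrocytes were cultured from knee articular cartilage of mice at postnatal day 3 to 5. They were taken untreated at day 0 (3 control and 3 cKO samples) or after 3 days of bone morphogenetic protein 2 (BMP2, 100 ng/µl per the labels), which was used to induce differentiation (day 3, 4 control and 4 cKO samples). Cartilage was taken at postnatal day 5 and treated with collagenase to remove connective tissue (4 control samples labelled flox and 4 labelled cKO, replicates 1 and 2 male and replicates 3 and 4 female in each). The labels call the culture samples biological replicates but name no animals, so p-values measure the spread between these samples.

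The libraries held 41749546 to 51741669 counts at day 0, 14434320 to 18918905 at day 3 and 1100198 to 1888896 in cartilage. Levels are given as CPM, counts relative to library size after scaling by the TMM factors of edgeR, and a gene at 3 counts or fewer in a library was treated as at the floor, which covers counting error only. Dnmt1 itself was lower in every cKO sample than in every control sample of its setting, with log2 fold changes of −2.44 at day 0, −1.41 at day 3 and −1.66 in cartilage (edgeR adjusted p 1.62e-08, 0.00625 and 6.34e-05). The cartilage means behind this were 13.2 CPM in cKO and 42.5 CPM in control. In the other deposited form of the cartilage data, with estimated counts, the difference was smaller, at 30.6 against 52.9 CPM. The 9 chondrocyte markers were all detected in every group, but their summed level was 48880 to 59710 CPM in cKO against 136500 to 144700 CPM in untreated control cultures, and 1134 to 15910 CPM in cKO against 85950 to 106600 CPM in control after BMP2. Skeletal muscle markers summed to 74.8 to 79.7 CPM in cKO against 13.3 to 15.0 CPM in control at day 0, and to 161 to 2153 CPM against 2.24 to 2.82 CPM at day 3. Most of the muscle sum in cKO at day 0 was Tnnt3, Des, Acta1 and Myod1 (means 26.3, 21.2, 16.0 and 11.4 CPM). Myog and Myf5 were close to 0 there (means 0.008 and 0.014 CPM), and the mean of Mylpf was lower than in control (0.389 against 0.516 CPM). Hypertrophic chondrocyte markers, all 6 detected, summed to 968 to 1086 CPM in cKO against 1447 to 1511 CPM in control at day 0. At day 3 they summed to 3956 to 4691 CPM against 398 to 837 CPM. Not every marker followed its sum. At day 0 Spp1 was higher in cKO (204.5 to 385.3 against 130.3 to 148.3 CPM). Most of the day 3 sum in cKO was Spp1 (mean 3054 against 267 CPM in control) and Mmp13 (777 against 120 CPM). Col10a1 and Ibsp also had higher means, with overlapping samples. In every cKO library at day 3 Panx3 was lower, at 16.2 to 43.99 against 132 to 244 CPM. Ihh was lower too, at 0.461 to 1.35 against 5.21 to 10.08 CPM. The part of these marker differences in the transporter results was not tested, and in these bulk samples fewer cells of a type cannot be told apart from less RNA per cell. Among the day 3 cKO libraries, replicate 4 stood apart: its counts differed from those of the others by a chi-square of 124 to 138 per degree of freedom, against 7.42 to 10.9 among the other 3. Its chondrocyte sum was 1134 CPM against 11220 to 15910 CPM. The day 3 genotype differences of the tested transporters are therefore also given without it. Values of other genes at day 3, the day changes and the interactions include it unless stated. In cartilage all 4 control libraries were in library pool 1 and all 4 cKO libraries in pool 2, and the effects of pool and genotype cannot be told apart.

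In untreated control cultures Slc2a1 was by far the most abundant of the 9. Between genes, levels are compared as CPM per kilobase of exon. Slc2a1 stood at 86.4 ± 2.29 CPM per kb (SD, n = 3), followed by Slc2a10 at 11.1 ± 0.495, Slc2a5 at 3.11 ± 0.385 and Slc2a8 at 1.72 ± 0.0762 CPM per kb. Slc2a12 and Slc2a3 were at 0.452 ± 0.0492 and 0.307 ± 0.0267 CPM per kb. Down to this point no neighbours in the order overlapped. Slc2a9, Slc2a6 and Slc2a4 came last at 0.0980, 0.0825 and 0.0698 CPM per kb, with overlapping samples. Slc2a1 thus made up 83.4 to 84.0% of the summed level per kb of the 9 genes, and Slc2a10 10.6 to 10.98%.

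The order was not the same in the other culture groups. In cKO cultures at day 0 the first 3 places went to Slc2a1 (48.1 ± 1.44 CPM per kb, SD, n = 3), Slc2a10 (4.86 ± 0.292) and Slc2a8 (1.82 ± 0.0443), while Slc2a5 was sixth at 0.225 ± 0.0147 CPM per kb and overlapped Slc2a9. In control cultures at day 3 Slc2a1 was at 24.1 ± 2.79, Slc2a10 at 8.59 ± 0.417 and Slc2a8 at 3.15 ± 0.322 CPM per kb (SD, n = 4), and Slc2a5 and Slc2a9 followed at 1.17 and 0.863 CPM per kb with overlapping samples. In cKO cultures at day 3 the first 3 were again Slc2a1 (24.9 ± 6.17), Slc2a10 (5.30 ± 0.130) and Slc2a8 (3.77 ± 0.471 CPM per kb, SD, n = 4), and the places from Slc2a9 down to Slc2a5 overlapped each with the next. The share of Slc2a1 in the summed level per kb was 85.2 to 85.5% in cKO at day 0, 60.1 to 63.9% in control at day 3 and 57.2 to 73.6% in cKO at day 3. The sum itself was 99.96 to 106 CPM per kb in control at day 0 and 34.9 to 43.4 at day 3, and in cKO cultures 54.5 to 58.0 at day 0 and 29.8 to 42.1 at day 3.

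**Figure D1:**
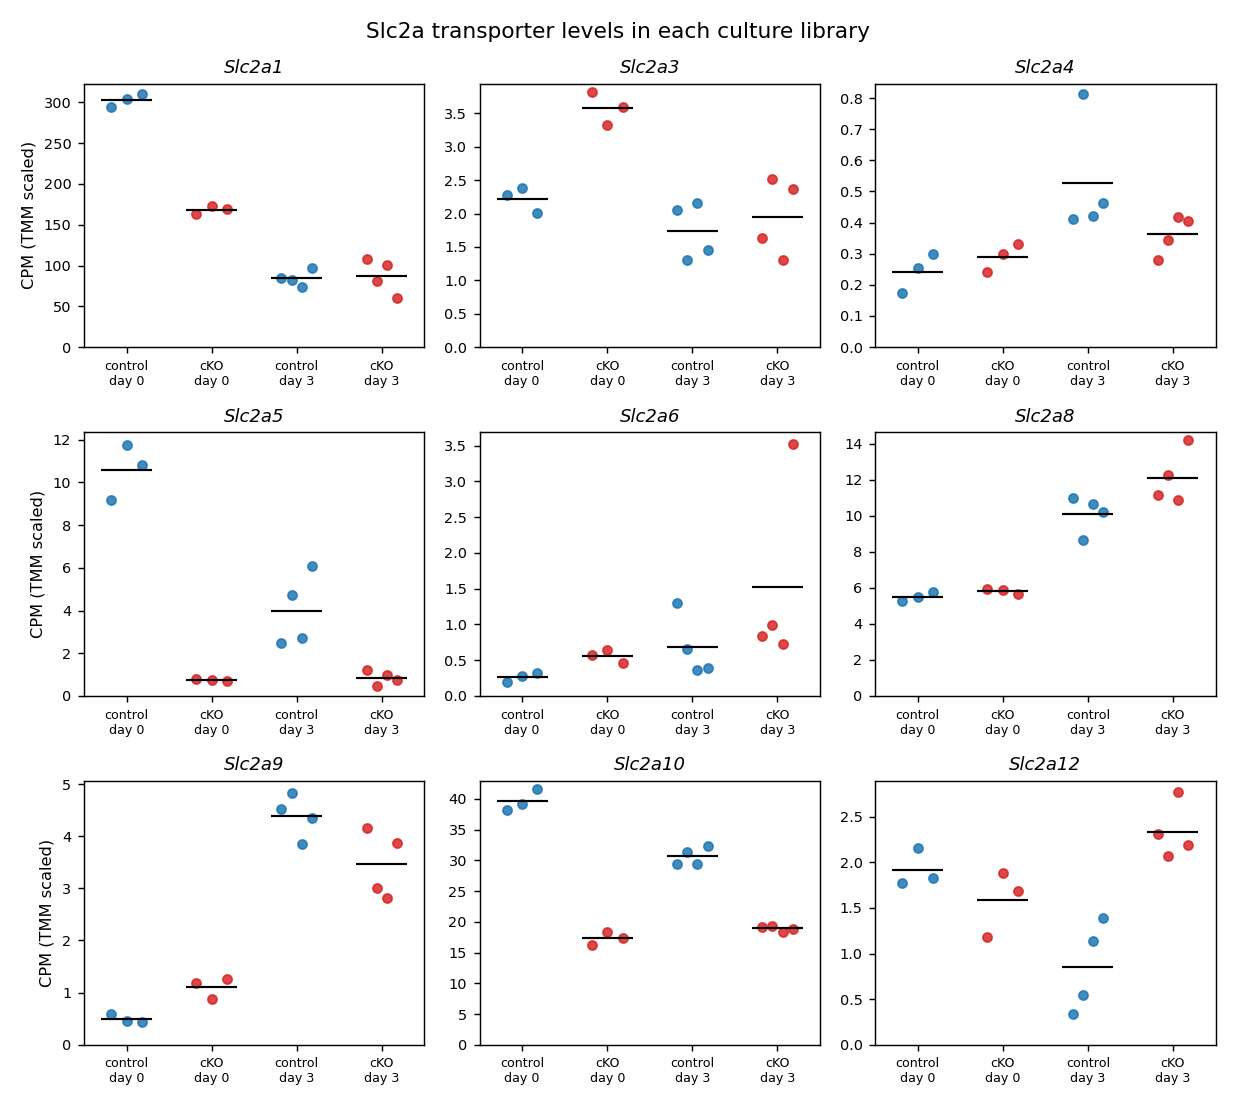
Level of each of the 9 transporters in each of the 14 culture libraries, in TMM-scaled CPM on a linear axis that starts at 0 and differs between panels. Points are single libraries and the bar is the group mean. Slc2a1 lies between 294 and 310.4 CPM in control cultures at day 0 and at 108.5 CPM or less in all 8 cultures at day 3, and the high point of Slc2a6 at 3.52 CPM is replicate 4 of cKO at day 3.

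At day 0, 3 of the 9 transporters were lower in cKO cultures (Slc2a1, Slc2a5 and Slc2a10) and 3 were higher (Slc2a3, Slc2a6 and Slc2a9), at an edgeR adjusted p under 0.05. This count of 6 of 9 stands beside 64.5% of all 15530 genes tested, of which 33.0% were called higher and 31.6% lower, so the transporters were called about as often as other genes. Their median log2 fold change was 0.07, against 0.01 for all genes tested. The groups did not overlap for the 6 genes called, and this was so for 70.4% of all genes tested. The 3 that were lower are the 3 most abundant carriers of the control cultures.

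Slc2a1 (chromosome 4, 119108711 to 119137983, plus strand) was at 294, 304 and 310.4 CPM in control replicates 1 to 3 and at 163, 173 and 169 CPM in cKO replicates 1 to 3 at day 0. The groups did not overlap, and their distance was many times their spread. Its exons share 105 bases with Gm12868, an antisense gene. Mean levels came to 303 ± 8.03 and 169 ± 5.05 CPM (SD, n = 3 each), a log2 fold change of −0.85 (edgeR adjusted p 1.05e-07, SE 0.0344).

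Slc2a5, the fructose carrier (chromosome 4, 150119283 to 150144169, plus strand), was at 9.18, 11.8 and 10.8 CPM in the control and at 0.817, 0.758 and 0.718 CPM in the cKO replicates at day 0. The counts behind these levels were 420 to 557 in control and 33 to 37 in cKO libraries, all above the floor. The level was 13.9-fold lower in cKO, a log2 fold change of −3.79 (edgeR adjusted p 5.12e-08, SE 0.136), the widest difference between genotypes among the 9.

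Slc2a10 (chromosome 2, 165503787 to 165519917, plus strand), which is mutated in the arterial tortuosity syndrome of humans, was at 38.2, 39.2 and 41.6 CPM in control and at 16.3, 18.4 and 17.3 CPM in cKO cultures at day 0. Every cKO sample lay below 19 CPM. The log2 fold change was −1.20 (edgeR adjusted p 3.14e-07, SE 0.0577).

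The bases just upstream of these 3 genes are shown because these transporters were lower in cKO cultures at day 0. Dnmt1 methylates cytosines that precede a guanine. They come from RefSeq on the build GRCm38.p6, end at the base before the annotated start of the gene, are written 5′ to 3′ on the plus strand, and carry each CG pair in capitals. DNA methylation was not measured in the data used here.
Slc2a1, chr4:119108495-119108710: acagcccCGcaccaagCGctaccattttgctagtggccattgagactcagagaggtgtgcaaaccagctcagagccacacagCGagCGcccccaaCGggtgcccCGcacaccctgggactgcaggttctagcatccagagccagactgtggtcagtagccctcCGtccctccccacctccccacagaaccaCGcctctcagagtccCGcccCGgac
Slc2a5, chr4:150119094-150119282: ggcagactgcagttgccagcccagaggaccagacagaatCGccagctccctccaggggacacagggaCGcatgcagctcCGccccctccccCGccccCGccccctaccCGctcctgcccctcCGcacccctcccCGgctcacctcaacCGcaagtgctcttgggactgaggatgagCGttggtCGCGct
Slc2a10, chr2:165503647-165503786: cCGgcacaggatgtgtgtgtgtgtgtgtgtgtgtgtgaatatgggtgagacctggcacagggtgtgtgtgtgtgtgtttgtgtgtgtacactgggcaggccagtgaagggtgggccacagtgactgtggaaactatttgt
The 216 bases of Slc2a1 hold 10 CG pairs, the 189 bases of Slc2a5 hold 12, and the 140 bases of Slc2a10 hold 1 beside a long run of alternating TG. Over the full window of 250 bases before to 50 bases after the RefSeq start, Slc2a1 had 18 CG pairs, Slc2a5 15 and Slc2a10 12, against a median of 7 over 32851 such windows of all genes. As few pairs or fewer were found in 71.9%, 67.0% and 62.1% of these windows, so counts this high were not rare. Of the transporters that were higher or not called at day 0, Slc2a6 had 22 pairs, Slc2a8 14, Slc2a12 6 and Slc2a9 2, so that Slc2a12 and Slc2a9 lay below the 3 lower genes and below that median, and Slc2a6 above them. The table held windows for 7 of the 9 genes, all but Slc2a3 and Slc2a4. On either strand, ACGTG, the core bound by hypoxia-inducible factors, was present in the windows of Slc2a1 and Slc2a10 and in 19.6% of all windows. CACGTG, which contains that core and is an E-box, was in none of the 7 and in 7.15% of all windows. GGGCGG, a GC-box bound by Sp1, was present for Slc2a1, Slc2a5, Slc2a6 and Slc2a10 and in 35.7% of all windows. The printed bases of Slc2a1 and Slc2a10 hold no ACGTG on either strand, and those of Slc2a10 no GGGCGG. These matches lie in the parts of the windows that are not printed. A match of letters is a description and shows no binding.

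Slc2a3, the neuronal-type glucose carrier (chromosome 6, 122727809 to 122801640, minus strand), was higher in cKO cultures at day 0, with 3.82, 3.33 and 3.59 CPM in cKO against 2.27, 2.39 and 2.01 CPM in control samples. The samples of the groups did not overlap (log2 fold change 0.68, edgeR adjusted p 0.00102, SE 0.124). Slc2a9, the urate carrier (chromosome 5, 38349273 to 38503143, minus strand), was at 1.18, 0.873 and 1.26 CPM in cKO against 0.590, 0.465 and 0.439 CPM in control cultures. Its log2 fold change was 1.14 (edgeR adjusted p 0.00238, SE 0.239). Both genes were scarce, with 87 to 185 counts per library for Slc2a3 and 19 to 65 for Slc2a9.

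Slc2a6 (chromosome 2, 27021363 to 27027998, minus strand), a lysosomal member, was called higher in cKO on 24 to 28 counts per library against 9 to 14 in control. Its levels were 0.577, 0.643 and 0.466 CPM against 0.197, 0.275 and 0.323 CPM (log2 fold change 1.07, edgeR adjusted p 0.0105, SE 0.294), and the call was lost when all 14 cultures were fitted together (1.07, edgeR adjusted p 0.180). The other 3 members had intervals that included 0. Slc2a8 (chromosome 2, 32972990 to 32982083, minus strand), an intracellular carrier, was at 5.29 to 5.78 CPM in control and 5.67 to 5.94 CPM in cKO cultures, and its log2 fold change of 0.07 had a 95% interval of −0.12 to 0.27, the narrowest of the 3. Slc2a12 (chromosome 10, 22645011 to 22704285, plus strand) was at 1.77 to 2.15 CPM in control and 1.18 to 1.88 CPM in cKO samples (−0.28, interval −0.72 to 0.17). Slc2a4 (chromosome 11, 69942539 to 69948188, minus strand) had 8 to 17 counts in every day 0 library (0.26, interval −0.49 to 1.02). It stood at 0.175 to 0.330 CPM over the 6 libraries, although the summed muscle markers were higher in cKO.

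**Figure D2:**
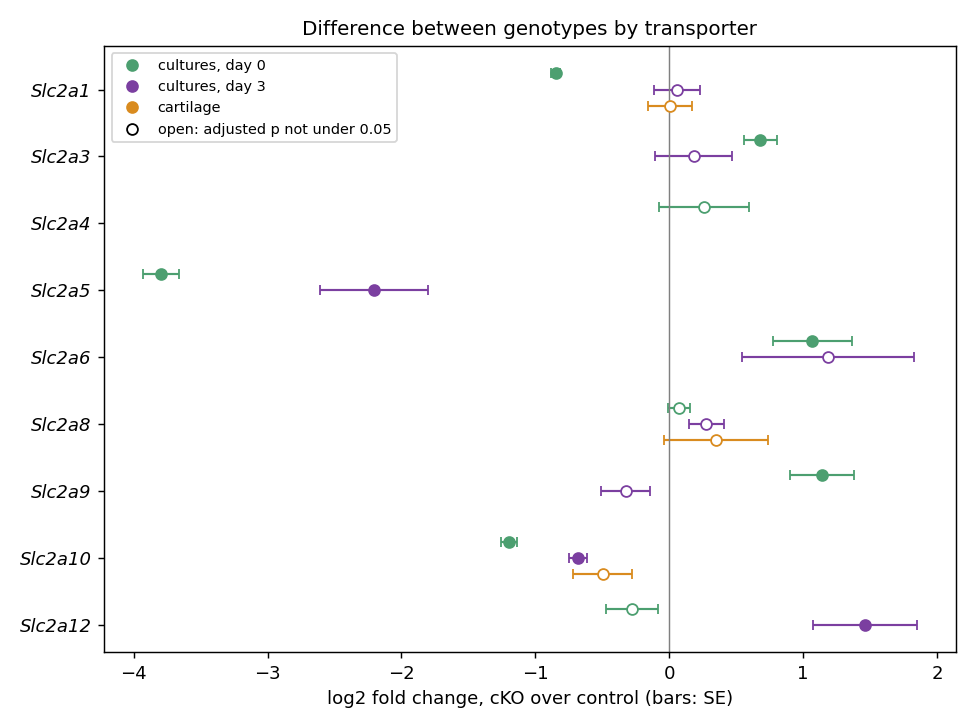
Log2 fold change of cKO over control for each transporter in cultures at day 0, cultures at day 3 and cartilage, with bars of 1 SE. Filled points have an edgeR adjusted p under 0.05, open points do not, and a missing point was not tested. Slc2a5 lies at −3.79 and −2.20 at day 0 and day 3, Slc2a10 is negative in all 3 settings with an open point in cartilage, and Slc2a12 is at 1.46 at day 3.

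After 3 days of BMP2, 3 of the 8 transporters that could be tested differed between genotypes: Slc2a5 and Slc2a10 were lower in cKO cultures and Slc2a12 was higher. Of all 13924 genes tested, 48.1% were called, 25.5% higher and 22.6% lower. The median log2 fold change was 0.12 for the 8 transporters and 0.01 for all genes. The same 3 transporters had groups without overlap, as had 47.9% of all genes tested. Without cKO replicate 4, which stood apart from its group, 3 transporters were called, beside 7808 of 14159 genes tested in that fit.

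Slc2a5 was at 2.47, 4.72, 2.70 and 6.07 CPM in control replicates 1 to 4 and at 1.24, 0.444, 0.991 and 0.750 CPM in cKO replicates 1 to 4. The highest cKO sample lay below the lowest control sample. Mean levels came to 3.99 ± 1.72 and 0.856 ± 0.339 CPM (SD, n = 4 each), with a log2 fold change of −2.20 (edgeR adjusted p 0.00236, SE 0.403), and of −2.17 without replicate 4. The cKO libraries held 9 to 22 counts of it.

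Slc2a10 showed the smallest spread of the transporters called. It was at 29.4, 31.4, 29.4 and 32.4 CPM in control and at 19.1, 19.4, 18.3 and 18.9 CPM in cKO cultures. The log2 fold change was −0.68 (edgeR adjusted p 1.09e-04, SE 0.0673), and −0.70 without replicate 4.

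Slc2a12 was at 0.343, 0.543, 1.14 and 1.39 CPM in control and at 2.31, 2.07, 2.77 and 2.19 CPM in cKO cultures. All 4 cKO samples lay above the controls, which were themselves spread widely on 5 to 21 counts per library. The log2 fold change was 1.46 (edgeR adjusted p 0.0139, SE 0.388), and 1.47 without replicate 4. Exons of Slc2a12 share 407 bases with Tbpl1, a gene on the opposite strand, and whether counting used strand is not given in the sources used here, so reads of the shared bases may belong to either gene. Tbpl1 was lower in cKO at day 3 (log2 fold change −0.44, edgeR adjusted p 0.00316), the direction opposite to that of Slc2a12. Muscle markers were higher in the cKO libraries with the values given above. In replicate 4 they summed to 161 CPM against 1282 to 2153 CPM in the other 3, and Slc2a12 was at 2.19 CPM. The part of Tbpl1 reads and of muscle cells in the Slc2a12 level was not tested.

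Slc2a1, which was lower at day 0, did not pass the test at day 3. Control cultures had 85.1, 82.6, 73.4 and 97.2 CPM and cKO cultures 108.5, 81.0, 100.1 and 59.9 CPM. The groups overlapped, the lowest value being that of cKO replicate 4, and the log2 fold change was 0.06 with a 95% interval of −0.33 to 0.45 (edgeR adjusted p 0.796), and 0.19 without replicate 4. That interval does not reach the −0.85 measured at day 0. The sign of this small difference turned when single libraries were left out.

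The remaining transporters at day 3 were not called. Slc2a6 had 0.844, 0.988, 0.731 and 3.52 CPM in cKO against 1.30, 0.652, 0.360 and 0.396 CPM in control cultures. Most of that difference lay in cKO replicate 4: the log2 fold change was 1.19 (edgeR adjusted p 0.159) with it and 0.35 without it. The 8 macrophage and osteoclast markers summed to 366 CPM in this replicate against 103 to 121 CPM in the other 3 cKO libraries, of which Ctsk, the cathepsin of osteoclasts that fibroblasts also make, was at up to 350 CPM, while C1qa was at 0 in all of them. Their part in the Slc2a6 level was not tested. Slc2a8 was at 0.28 (interval −0.02 to 0.57, edgeR adjusted p 0.111), Slc2a9 at −0.32 (−0.74 to 0.09, edgeR adjusted p 0.171) and Slc2a3 at 0.18 (−0.47 to 0.84, edgeR adjusted p 0.627) on the log2 scale. Without cKO replicate 4 these were 0.18, −0.40 and 0.067, and none was called. Slc2a4 had 5 to 15 counts per library and did not reach the level needed for a test.

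In control cultures the level of 6 of 8 tested transporters differed between day 0 and day 3. Slc2a1, Slc2a5, Slc2a10 and Slc2a12 fell and Slc2a8 and Slc2a9 rose, beside 56.9% of all 14909 genes called, 28.1% higher and 28.8% lower. The median log2 change was −0.36 for the transporters and 0.00 for all genes. The days did not overlap for 7 of the 8, the 6 called and Slc2a6, as for 64.0% of all genes. Day, BMP2 treatment, deposited table and depth changed together, so their parts in this change cannot be told apart.

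Slc2a1 fell by 1.84 on the log2 scale in control cultures (edgeR adjusted p 9.1e-07, SE 0.156), from 303 ± 8.03 CPM (SD, n = 3) to 84.6 ± 9.79 CPM (SD, n = 4), with every day 3 sample below every day 0 sample. Slc2a9 rose from 0.439 to 0.590 CPM at day 0 to between 3.84 and 4.83 CPM at day 3. This was the largest change of the 8, 8.74-fold, with a log2 change of 3.13 (edgeR adjusted p 1.80e-07, SE 0.216). Slc2a8 rose from 5.52 ± 0.245 to 10.1 ± 1.03 CPM (log2 change 0.87, edgeR adjusted p 2.91e-05, SE 0.113).

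The other 3 that fell did so by smaller amounts. Slc2a5 fell by 1.40 (edgeR adjusted p 0.00129, SE 0.296), Slc2a12 by 1.17 (edgeR adjusted p 0.0108, SE 0.344) and Slc2a10 by 0.37 (edgeR adjusted p 1.67e-04, SE 0.0596) on the log2 scale. Slc2a10, at 38.2 to 41.6 CPM before and 29.4 to 32.4 CPM after, was the smallest of these changes but well outside the spread of the samples. Slc2a3 (−0.35, edgeR adjusted p 0.224) and Slc2a6 (1.33, edgeR adjusted p 0.0849) were not called.

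In cKO cultures 5 of 8 transporters differed between the days: Slc2a6, Slc2a8 and Slc2a9 rose, and Slc2a1 and Slc2a3 fell. Of all 14909 genes 62.2% were called, 32.4% higher and 29.8% lower, and the medians were 0.36 for the transporters and 0.02 for all genes. The days did not overlap for 6 of the 8, the 5 called and Slc2a12, as for 62.5% of all genes. Slc2a1 went from 169 ± 5.05 CPM (SD, n = 3) to 87.4 ± 21.6 CPM (SD, n = 4), a log2 change of −0.95 (edgeR adjusted p 1.65e-04, SE 0.155). Slc2a3 fell by 0.87 (edgeR adjusted p 0.00517, SE 0.230), Slc2a8 rose by 1.05 (edgeR adjusted p 5.39e-06, SE 0.113) and Slc2a9 by 1.64 (edgeR adjusted p 1.48e-05, SE 0.199) on the log2 scale. The rise of Slc2a6 (1.42, edgeR adjusted p 0.0377, SE 0.548) was not called without cKO replicate 4 of day 3 (0.61, edgeR adjusted p 0.171), nor without control replicate 2 or any of the 3 cKO replicates of day 0 (1.30 to 1.52).

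Slc2a5 and Slc2a10, both low in cKO at day 0, had no called change there. Slc2a5 was at 0.718 to 0.817 CPM at day 0 and 0.444 to 1.24 CPM at day 3 in cKO cultures (log2 change 0.16, 95% interval −0.63 to 0.94), and Slc2a10 at 16.3 to 18.4 and 18.3 to 19.4 CPM (0.13, interval −0.01 to 0.26). Slc2a12, which fell in control cultures, had a log2 change of 0.56 in cKO (interval −0.14 to 1.26).

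**Figure D3:**
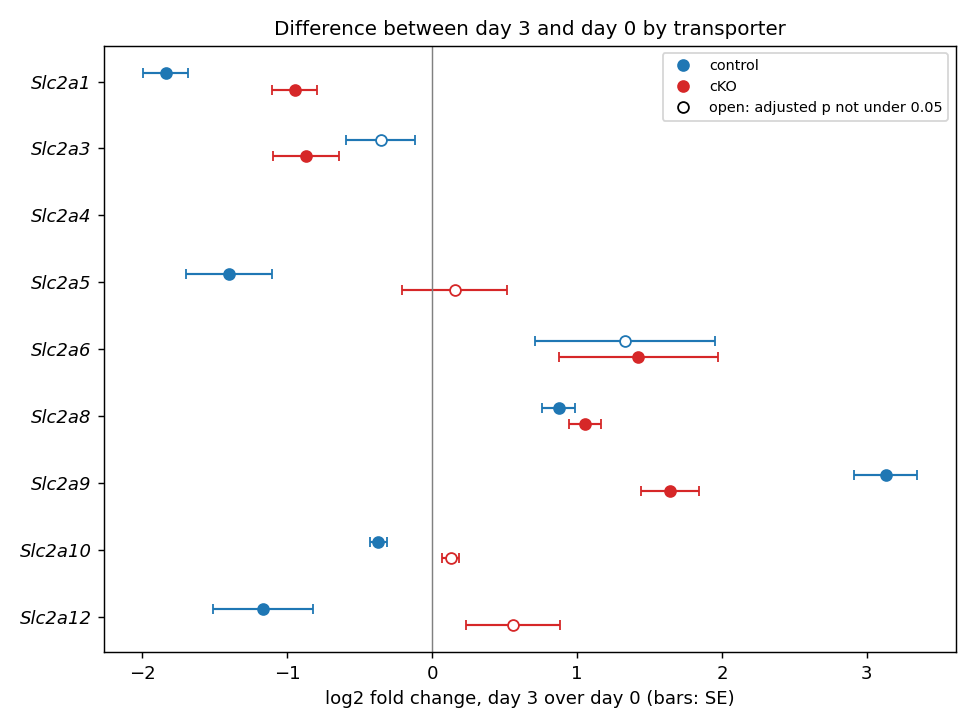
Log2 fold change from day 0 to day 3 of each transporter in control and in cKO cultures, with bars of 1 SE. Filled points have an edgeR adjusted p under 0.05 and open points do not, and Slc2a4 was not tested. Slc2a9 is at 3.13 in control and 1.64 in cKO, Slc2a1 at −1.84 and −0.95, and Slc2a12 at −1.17 and 0.56.

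Whether the genotype difference itself changed between the days was tested as an interaction on the same 14 libraries, and this contrast shares them with the comparisons above. It was called for 5 of 8 transporters, beside 16.8% of all 14909 genes, 9.94% positive and 6.89% negative. It was positive for Slc2a1 (0.89, edgeR adjusted p 0.0161, SE 0.221), Slc2a5 (1.56, edgeR adjusted p 0.0390, SE 0.472), Slc2a10 (0.50, edgeR adjusted p 0.00218, SE 0.0854) and Slc2a12 (1.72, edgeR adjusted p 0.0257, SE 0.474) on the log2 scale. For Slc2a5 and Slc2a10 this means a deficit of cKO that was smaller at day 3, and for Slc2a12 a difference that was present at day 3. For Slc2a1 the deficit of day 0 was not seen at day 3 (0.06, 95% interval −0.33 to 0.45). The interaction of Slc2a9 was negative (−1.49, edgeR adjusted p 0.00384, SE 0.280): it was higher in cKO at day 0, with a log2 fold change of −0.32 that was not called at day 3.

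The interactions of Slc2a5 and Slc2a12 were the less firm ones. With 1 library left out at a time, that of Slc2a5 lost its call in 10 of 14 fits (1.32 to 1.83 on the log2 scale) and that of Slc2a12 in 5 of 14 (1.48 to 2.05). For Slc2a5 this was so for each of the 6 day 0 libraries and for replicates 1 and 3 of both genotypes at day 3. For Slc2a12 it was so for control replicates 2 and 3 and cKO replicates 1 and 3 of day 0, and for control replicate 2 of day 3. Those of Slc2a1, Slc2a9 and Slc2a10 were called in all 14 fits. Across the 4 culture groups, Slc2a1 was highest in control at day 0, then in cKO at day 0, and lowest at day 3, where the genotypes overlapped. Slc2a10 went from control at day 0 to control at day 3 to the overlapping cKO groups, and Slc2a9 from the overlapping day 3 groups to cKO and then control at day 0.

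In cartilage of postnatal day 5 Slc2a1 was again the most abundant of the 9, but counts were few and only Slc2a1, Slc2a8 and Slc2a10 could be tested. None of the 3 was called by edgeR, beside 6.19% of all 8793 genes, 3.15% higher and 3.04% lower. At an unadjusted p under 0.05 the count was 1 of 3, Slc2a10, beside 1905 of all 8793 genes. DESeq2 called 0 of them. The medians were 0.00 for the 3 and 0.01 for all genes. Chondrocyte markers summed to 28470 to 57530 CPM in cKO against 62600 to 94370 CPM in control cartilage, and the muscle markers to 58.9 to 91.8 CPM against 15.5 to 20.2 CPM, with Myf5 and Myog at 0 in all cKO and Myh3 at 0 in all control libraries. Most of the muscle sum in cKO was Tnnt3 (mean 57.5 against 7.87 CPM in control). Des and Acta1 were also higher in cKO, while the mean of Mylpf was lower (2.17 against 3.06 CPM). Ckm and Myod1 were not listed for cartilage. The part of these markers in the transporter values was not tested. Levels here come from the 3′ ends of transcripts and are not divided by length.

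Slc2a1 was at 146, 143, 188 and 191 CPM in control replicates 1 to 4 and at 196, 119, 142 and 209 CPM in cKO replicates 1 to 4. The groups overlapped widely, and the log2 fold change was 0.00 with a 95% interval of −0.35 to 0.35, which does not reach the −0.85 of the day 0 cultures.

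Slc2a10 was at 24.02, 25.6, 21.1 and 24.7 CPM in control and at 20.2, 24.5, 12.5 and 12.1 CPM in cKO cartilage, on 14 to 48 counts per library. The low cKO values are those of both females, whereas 1 male cKO sample lay within the range of the controls and the other just under it. The log2 fold change was −0.50 (95% interval −0.96 to −0.03, unadjusted p 0.0399, edgeR adjusted p 0.204). The difference of the genotype effect between females and males was −0.77 (edgeR adjusted p 0.994, SE 0.416), with 2 samples per sex and genotype.

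Slc2a8 was at 10.5, 5.97, 17.4 and 6.18 CPM in control and 16.8, 18.4, 6.24 and 8.61 CPM in cKO cartilage. Both groups were spread widely, and the log2 fold change of 0.35 had an interval of −0.48 to 1.17. Its genotype effect differed between the sexes by −1.59 (female minus male, unadjusted p 0.0434, edgeR adjusted p 0.994), which was not called. In that contrast edgeR called 0 of the 3 transporters (1 at an unadjusted p under 0.05, and 0 with DESeq2) and 0.0103% of all 9687 genes. At an unadjusted p under 0.05 there were 468 such genes.

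Slc2a3 had 10, 5, 10 and 11 counts in control and 6, 7, 3 and 1 in cKO cartilage, or 4.27 to 9.17 against 0.861 to 6.12 CPM, and was not tested on these counts. The authors' other table of the same libraries, with estimated counts, had 21 to 35 counts of Slc2a3 in control and 9 to 14 in cKO, and there its log2 fold change was −0.97 (edgeR adjusted p 0.0824, SE 0.310). At 7 counts or fewer per library, Slc2a4, Slc2a5, Slc2a6, Slc2a9 and Slc2a12 were not tested, so a difference is undetermined at this depth. Slc2a5, so much lower in the cKO cultures, had 3, 3, 0 and 0 counts in control and 4, 7, 2 and 2 in cKO cartilage. Slc2a6 and Slc2a9 had 0 counts in all 4 control libraries, where the floor of 3 counts equals 1.59 to 2.55 CPM, and at most 2 and 1 counts in any cKO library.

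**Figure D4:**
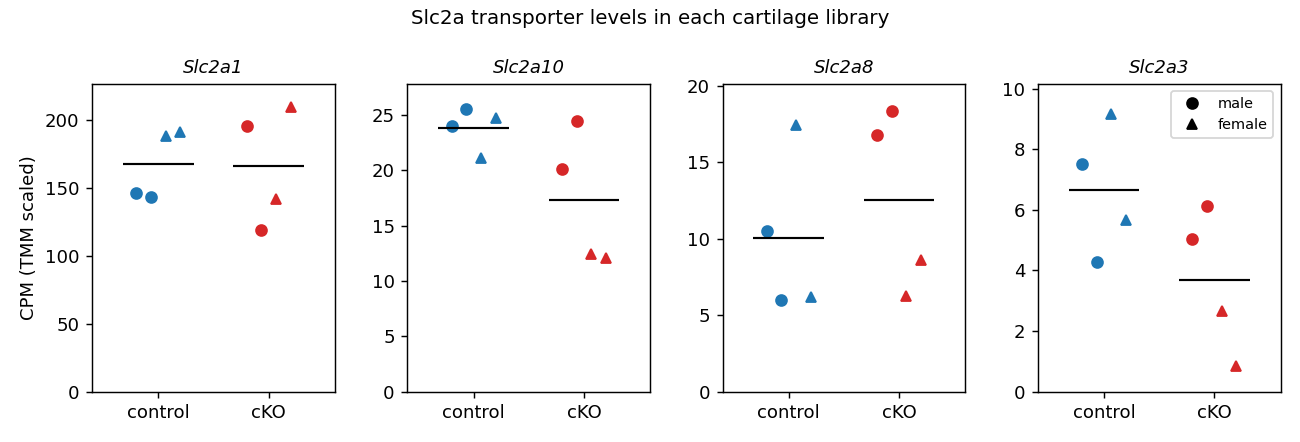
Level of the 4 transporters with the most counts in each cartilage library, in TMM-scaled CPM on a linear axis from 0 that differs between panels. Circles are males, triangles females, and the bar is the group mean. The groups overlap in every panel, and both female cKO samples of Slc2a10 lie at 12.1 and 12.5 CPM, below all 4 controls.

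The genes around these transporters are described from lists chosen by function. Their counts of calls are to be read beside the shares of all genes tested. These were 64.5% at day 0 (33.0% higher, 31.6% lower), 48.1% at day 3 (25.5% and 22.6%) and 6.19% in cartilage (3.15% and 3.04%). Of the other members of the Slc2 family, Slc2a13, a proton-coupled myo-inositol carrier, was lower in cKO at day 0 (18.8 ± 1.63 against 28.9 ± 1.66 CPM, SD, n = 3 each, log2 fold change −0.62, edgeR adjusted p 5.19e-05) and not called at day 3 (0.04, edgeR adjusted p 0.791), and its interaction was positive (0.65, edgeR adjusted p 0.0135). Slc2a2, the carrier of liver and pancreas, was barely present and called higher in cKO at day 0 at 0.333 against 0.169 CPM. Of 9 sodium-coupled and SWEET-type sugar carriers, 4 could be tested at day 0 and 2 were lower in cKO: Slc50a1 (−0.36) and Slc5a3, the sodium-coupled myo-inositol carrier (−0.23). Slc50a1, the only SWEET-type carrier of mammals, was also lower at day 3 (−0.52, edgeR adjusted p 4.89e-04).

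Among 7 tested genes of the first steps of glucose inside the cell, 3 were higher and 4 lower in cKO at day 0 (median log2 fold change −0.26). Hk2, the inducible hexokinase that traps glucose as its phosphate, was at 58.9 ± 2.58 CPM in cKO and 124 ± 3.85 CPM in control (SD, n = 3 each, log2 fold change −1.08, edgeR adjusted p 7.0e-08). Pgm1, a phosphoglucomutase, was at −0.81 and Adpgk, the ADP-dependent glucokinase, at −0.42, while Gpi1, the next glycolytic enzyme, was at 0.31. At day 3, 4 were higher and 1 lower, with G6pdx at 0.66, Gpi1 at 0.61 and Pgm1 at 0.41, and Hk2 was not called (−0.10, edgeR adjusted p 0.508). In control cultures Hk2 fell by 1.39 on the log2 scale from day 0 to day 3, and its interaction was 0.96 (edgeR adjusted p 0.00124). In cartilage 0 were higher and 1 lower, Hk1 at −0.70, and Hk2 was at −0.58 (edgeR adjusted p 0.0601).

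Of 6 tested genes that act on fructose, polyols and fructose 6-phosphate, 0 were higher and 4 lower in cKO at day 0, with a median of −0.73. Of all genes tested, 64.5% were called. The 4 lower genes included Khk, the ketohexokinase that phosphorylates the fructose brought in by carriers such as Slc2a5 (3.17 against 8.24 CPM, log2 fold change −1.39, edgeR adjusted p 1.90e-05). Gfpt2 and Gfpt1, which send fructose 6-phosphate into the hexosamine pathway, were at −1.73 and −0.98. At day 3, 1 was higher and 4 lower: Sord, which makes fructose from sorbitol, was at 0.93, and Khk, Gfpt2 and Gfpt1 were at −2.17, −1.77 and −0.89. In cartilage 0 of 4 were called by edgeR, and Khk was at −0.84 (edgeR adjusted p 0.0614).

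Of 12 genes that move glucose carriers between membranes or degrade them, 3 were higher and 5 lower in cKO at day 0. The Rab GTPase regulator Tbc1d4 was higher at 0.38, Gipc1 at 0.18 and Lnpep at 0.15. Txnip and Arrdc4, arrestin-like proteins that drive the uptake of SLC2A1 from the cell surface, were at −0.68 and −0.83, and Sort1, a sorting receptor of Slc2a4 vesicles, at −0.62. At day 3, 1 was higher, Arrdc4 at 0.81, and 2 were lower, Sort1 at −2.04 and Rab10 at −0.25. Txnip rose with the days in both genotypes, by 0.96 in control and 1.56 in cKO cultures on the log2 scale. In cartilage 0 of 11 were higher and 1 lower, Tbc1d4 at −0.76 (edgeR adjusted p 0.0414), the direction opposite to that at day 0.

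Of 15 transcription factors and hormone pathway genes linked to these carriers, 4 were higher and 6 lower in cKO at day 0. The higher ones included Irs2 at 0.43, Epas1, a relative of Hif1a, at 0.30 and Mlx at 0.30. Hif1a, the oxygen-regulated factor for which Slc2a1 is a known target, was at 364 CPM in cKO and 582 CPM in control cultures (log2 fold change −0.68, edgeR adjusted p 1.82e-05), Klf15 at −1.62 and the insulin receptor Insr at −1.01. At day 3, 3 of 14 were higher and 4 lower. Hif1a was then higher in cKO (324 against 239 CPM, log2 fold change 0.45, edgeR adjusted p 0.0361), as was Myc (0.51), while Ppargc1a (−3.49), Klf15 (−2.11) and Irs1 (−1.10) were lower. Hif1a and Myc fell by 1.29 and 1.36 on the log2 scale from day 0 to day 3 in control cultures, and the interaction of Hif1a was 1.12 (edgeR adjusted p 0.00326). In cartilage 0 of 11 were higher and 1 lower, Epas1 at −1.20 (edgeR adjusted p 0.00452), the direction opposite to that at day 0. At day 3 Epas1 was not called (0.10, edgeR adjusted p 0.906).

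Finally, the genes whose levels followed each transporter most closely over the 14 cultures were listed for the 6 transporters with enough signal, by the Pearson r of their log2 levels among 14909 genes. This describes likeness only, since the 14 libraries share 4 groups and r follows the differences between those groups. For Slc2a1 they were Atf3 (r = 0.989), a stress-induced transcription factor, Ak4 (0.988), a mitochondrial adenylate kinase, and Trmt61a (0.984). For Slc2a10 they were Sec23a (0.986), a coat protein of vesicles that leave the endoplasmic reticulum, Ick (0.985) and Kdelr3 (0.98), a receptor that returns proteins to it. For Slc2a9 they were Zmat3 (0.984), Cpt1c (0.983) and Cdkn1a (0.982), of which Zmat3 and Cdkn1a are known targets of p53. For Slc2a5 they were Mon2 (0.978), Arfgef2 (0.977) and Agap1 (0.974), and for Slc2a8 Rgs5 (0.989), Tmem50a (0.989) and Rab21 (0.987). For Slc2a3 they included Parg (0.907) and Plac9a (0.907).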

How the data were processed

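Messenger RNA was measured in 22 samples of 6 groups, taken from the labels. Culture values are gene-level estimated counts as the authors deposited them, day 0 and day 3 apart (27.5% and 20.5% of values not whole). They were rounded for the tests. The tools that made them are not given in the sources used here. Cartilage has 2 deposited forms, whole-number counts, used here, and estimated counts, an alternative. Cartilage libraries used the barcoded 3′ protocol BRB-seq, and UMI-tools 1.1.1, Trim Galore 0.6.7, HISAT2 2.2.1, featureCounts 2.0.1 and DESeq2 1.34.0 are named per the submitters' processing notes, with GRCm38 as the build of all samples. Unused columns of per-sample values numbered 0.

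R 4.3.3 and edgeR 4.0.16 were used for quasi-likelihood tests after filterByExpr (10 counts, 15 in total) and TMM scaling. P-values were adjusted by Benjamini-Hochberg across every gene in the fit, and "called" means below 0.05 after adjustment. Genotype was fitted on the samples of 1 setting, with sex as a covariate in cartilage, and the day changes and the interaction on all 14 cultures. Log2 fold changes are cKO over control or day 3 over day 0, and intervals are at 95%. The tests were checked on simulated data. Alternatives were DESeq2 1.42.0, other size factors, no filter, the replicate block, other sets of samples and each library left out. Of 34866 culture identifiers, 34582 matched GENCODE M21 names. All 9 transporters are named, and of each list up to 3 called genes per direction with the largest log2 fold change among those whose log2 CPM averaged 1 or more. Genes outside that rule (Slc2a2, Hk2 and Khk where not called, Slc2a13 at day 3, and Dnmt1 and Tbpl1) were added after their values were seen. The members and lists were chosen with earlier results of these data known. Some results on markers and on likeness are not reported here.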

Additional observations from a re-analysis of the deposited data

Results flagged for a closer look

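Slc2a6 in cKO cultures at day 3 was at 3.52 CPM in replicate 4 and at 0.731 to 0.988 CPM in the other 3, a gap above the critical value of Dixon's test (0.829 for 4 samples). Chance gives such a gap in about 1 in 20 groups, and 22 groups of the transporters were looked at. This library also stood apart over all genes. The cause was not tested.

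The difference between genotypes was not the same at day 0 and day 3, by an interaction term in edgeR, for 5 transporters. On the log2 scale the interaction was 0.89 for Slc2a1, 1.56 for Slc2a5, −1.49 for Slc2a9, 0.50 for Slc2a10 and 1.72 for Slc2a12 (edgeR adjusted p 0.0161, 0.0390, 0.00384, 0.00218 and 0.0257). Among all genes tested 16.8% had such an interaction.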

How the results depend on the processing

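Of the values of single transporters recomputed under an alternative, 657 kept their direction and their side of the threshold, 23 lost a call, 2 gained one and 18 changed sign. The number of transporters called was 6 at day 0, 3 at day 3 and 0 in cartilage in every fit with a library left out. It ranged from 6 to 7 for the day change in control, 4 to 5 for that in cKO and 3 to 5 for the interaction, with 3 when replicate 2 or 3 of control or replicate 1 or 3 of cKO at day 0 was left out. The samples were not treated as paired in the main fits. Deviations of same-numbered samples correlated at −0.063 to 0.14 (day 0), −0.145 to −0.064 (day 3) and −0.082 to 0.265 (cartilage). So few pairs cannot decide whether the replicate numbers pair the samples, and in cartilage the numbers also follow sex. With the replicate block, 6, 3 and 0 transporters were called in these settings, 6 and 4 for the day changes and 5 for the interaction.

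With 1 library left out the log2 difference of Slc2a1 lay between −0.060 and 0.19 at day 3 and between −0.18 and 0.13 in cartilage, the day change of Slc2a5 in cKO from −0.10 to 0.36 and the interaction of Slc2a6 from −0.72 to 0.59. None of these was called, and the sign turned within each range. In cartilage Slc2a1 was also at −0.034 without a filter, −0.021 with the replicate block, −0.0077 without the sex covariate and −0.06 with the estimated counts. The interaction of Slc2a6 was −0.12 with the replicate block. The day change of Slc2a6 in cKO was not called with the replicate block (0.95, edgeR adjusted p 0.162) or on cKO samples alone (1.42, edgeR adjusted p 0.0802). Slc2a8 at day 3 was called in the fit of all 14 cultures (0.26, edgeR adjusted p 0.0458), and the day change of Slc2a6 in control without cKO replicate 4 (1.33, edgeR adjusted p 0.0112). The cause was not tested.

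Over all genes, 6260 were called at day 0 in the fit of 14 cultures against 10023. In cartilage DESeq2 called 357 genes, the fit without a filter 1044 and the fit without cKO replicate 4 362, against 544. Leaving out 1 library gave 1591 to 4051 genes with an interaction, against 2509: 1591, 1668 and 1604 without control replicate 2, control replicate 3 and cKO replicate 3 of day 0, and 4051 without cKO replicate 4 of day 3. In the sex contrast 33 genes were called without a filter and 2 on estimated counts, against 1. Depth limits the cartilage results: 6 of the 9 transporters had too few counts there for a test.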
